A study of Oryza sativa Indica Group with 12 samples.

Results

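In leaves of the rice variety ZS97, the loops found with an antibody against RNAPII were compared, loop by loop, with the loops found with an antibody against H3K4me3. The list of RNAPII loops held 13012 loops and the list of H3K4me3 loops 12279. Together these were 25291 of the 64726 loops in the 6 lists of the series. All 6 lists hold loops within a chromosome only. For ZS97 RNAPII the paper counts more loops between chromosomes than within them, and for ZS97 H3K4me3 far fewer. Loops between chromosomes are not part of the comparison. A loop was called shared when both its anchors overlapped, by at least 1 bp, the 2 anchors of a single loop of the other list. A loop that was not shared was called part-shared when at least 1 of its anchors overlapped any anchor of the other list, and private when neither did. Below, an anchor that overlapped an anchor of the other list is called marked.

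The series covers 2 varieties, MH63 and ZS97 (the parents of a hybrid rice), and 3 antibody targets in 12 libraries. The comparison here rests on 4 libraries, 2 biological replicates of ZS97 for RNAPII and 2 for H3K4me3, all from young leaves of 2-week-old seedlings that were dual cross-linked when collected, with no treatment named. A leaf holds many cell types, so each list is a sum over them. The authors joined the replicates before they called loops, so the values below come without replicate error, no test between groups was possible, and loops of a list were not counted as replicates. Intervals are Wilson 95% intervals and cover counting error only.

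H3K4me3 is a histone mark of the 5′ part of transcribed genes, laid down around the start site. RNAPII is the enzyme that transcribes protein-coding genes, and its antibody also recovers chromatin from gene bodies that are being transcribed. ChIA-PET recovers DNA pieces that were bound to the target and close to each other in the nucleus, and reads their joined ends as a paired-end tag (PET). The PET count of a loop is the number of such tags between its anchors, and it was not scaled to library depth. Loop span is the distance between anchor midpoints.

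The lists differed in shape before any comparison. RNAPII loops had PET counts from 6 to 1052 with a median of 9, a median span of 36.4 kb and a median anchor width of 5.47 kb. H3K4me3 loops had PET counts from 4 to 70 with a median of 5, a median span of 17.5 kb and a median anchor width of 1.76 kb. Once anchors that overlap within a list had been merged, 6901 RNAPII anchors covered 20.7 Mb and 11960 H3K4me3 anchors covered 20.1 Mb. The lists hold only anchors of loops within a chromosome. Sites bound without forming a loop, or looped only to another chromosome, were left out. An unmarked anchor may therefore still carry the other target.

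About the same small share of each list was a loop of the other list. Of the RNAPII loops, 1723 were shared (13.2%, 95% interval 12.7 to 13.8%), and of the H3K4me3 loops, 1779 were shared (14.5%, 95% interval 13.9 to 15.1%). The rest divided in unlike ways. Among RNAPII loops 9726 were part-shared (74.7%) and 1563 private (95% interval 11.5 to 12.6%). Among H3K4me3 loops 5172 were part-shared (42.1%) and 5328 private (43.4%, 95% interval 42.5 to 44.3%). The share of private loops was higher in the H3K4me3 list on 12 of the 12 chromosomes.

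RNAPII loops often had H3K4me3 anchors at both ends that no single H3K4me3 loop linked. Both anchors were marked in 6416 RNAPII loops (49.3%), and 4693 of these (36.1% of the list) were not shared. In the H3K4me3 list this was rare, with 567 such loops (4.62%). Part-shared H3K4me3 loops mostly had 1 marked anchor, as 4605 loops or 37.5% of the list did.

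Matching was mostly of 1 loop with 1 loop. The shared loops formed 2054 matching pairs, and 1101 pairs consisted of loops with no other match. Of the shared RNAPII loops, 1431 (83.1%) matched a single H3K4me3 loop, 261 matched 2 and 31 matched 3 or more, up to 6. Of the shared H3K4me3 loops, 1525 (85.7%) matched a single RNAPII loop. The smaller of the overlaps at the anchors of a shared RNAPII loop had a median of 1088 bp, and in 71 of the 1723 loops it was under 100 bp. Just outside the limit, 71 RNAPII loops that were not shared had an H3K4me3 loop within 100 bp at both anchors, and 3038 had one within 5 kb.

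The lowest PET count differs between the lists, so the comparison was repeated with a count of at least 6 in both. The paper set its limits by sequencing depth and reports more PETs for ZS97 RNAPII, so an equal count is not an equal limit. The repeat left out 7150 H3K4me3 loops (58.2%) and no RNAPII loop. The share of shared loops then parted, to 1039 RNAPII loops (7.98%, 95% interval 7.53 to 8.46%) and 984 of 5129 H3K4me3 loops (19.2%, 95% interval 18.1 to 20.3%), and it was higher in the H3K4me3 list on 11 of the 12 chromosomes. A match counts in both lists, so the numbers of shared loops stayed near each other. The shares parted with the sizes of the lists, 13012 and 5129 loops. Of the 1723 RNAPII loops shared before, 1039 were still shared, 578 became part-shared and 106 private. With fewer H3K4me3 loops left to meet, 3180 RNAPII loops were private (24.4%) and 3032 had both anchors marked but not linked (23.3%).

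With anchors as deposited, loops with many PETs were shared far more often than loops with few, in both lists. Against 13.2% of all RNAPII loops, the shared portion was 7.26% at PET counts of 6 to 9 (503 of 6933, 95% interval 6.67 to 7.89%) and 26.6% at counts of 20 to 49. It was 47.6% at 50 to 99 and 65.1% at 100 or more (95 of 146, 95% interval 57.0 to 72.3%). Among the 50 RNAPII loops with the most PETs, 36 were shared and 2 private. Against 14.5% of all H3K4me3 loops, the shared portion was 11.1% at counts of 4 or 5 (795 of 7150, 95% interval 10.4 to 11.9%), 15.5% at 6 to 9, 27.5% at 10 to 19 and 45.5% at 20 to 49 (66 of 145, 95% interval 37.6 to 53.6%). Only 3 H3K4me3 loops had a count of 50 or more.

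**Figure D1:**
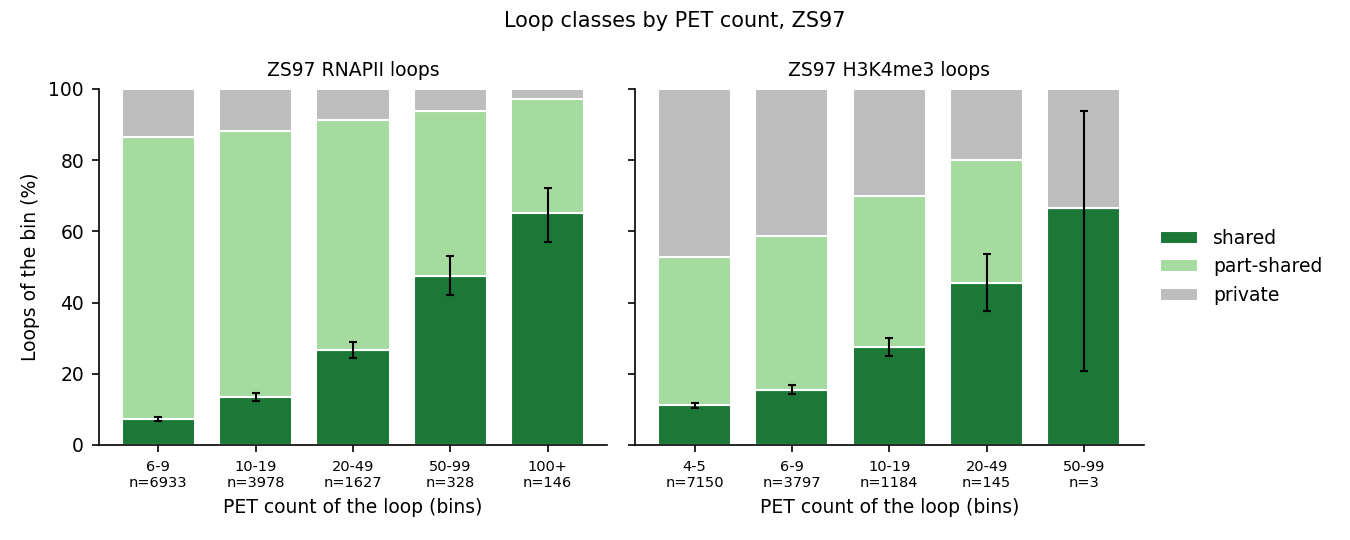
Share of loops (%, linear axis from 0) that were shared, part-shared or private in bins of PET count, for ZS97 RNAPII loops on the left and ZS97 H3K4me3 loops on the right, with the number of loops under each bar and Wilson 95% intervals of the shared portion as error bars. The shared portion grows from 7.26% to 65.1% over the RNAPII bins and from 11.1% to 45.5% over the H3K4me3 bins up to 49, and the last H3K4me3 bin holds 3 loops.

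The order held on nearly every chromosome. RNAPII loops with a count of 20 or more were shared more often than those with a count of 6 or 7 on 12 of the 12 chromosomes, with up to 39.1% against up to 12.4%. H3K4me3 loops with a count of 20 or more were shared more often than those with 4 or 5 on 11 of the 12. A chromosome held as few as 2 H3K4me3 loops with 20 or more, and their shared portion ran from 12.5 to 100%. The exception was chromosome 10, where 1 of 8 such loops was shared (12.5%) against 13.5% of those with 4 or 5. With at least 6 in both lists the RNAPII series ran from 4.01% at counts of 6 to 9 to 52.1% at 100 or more.

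Span and anchor width were then held within bands. Among RNAPII loops of 10 to 20 kb, 16.5% were shared at PET counts of 6 to 9 and 58.9% at 100 or more. Among those of 20 to 50 kb the values were 11.3% and 84.6% (33 of 39, 95% interval 70.3 to 92.8%). With anchors of 5 to 8 kb on average they were 3.94% and 69.1%. With narrow RNAPII anchors there was no such series. At 2 to 3 kb, 12.3% were shared at counts of 6 to 9, 15.9% at 10 to 19 and 12.7% at 20 to 49 (10 of 79, 95% interval 7.02 to 21.8%). Among H3K4me3 loops with anchors of 1 to 2 kb the shared portion ran from 9.74% at counts of 4 or 5 to 23.1% at 10 to 19.

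With anchors cut around their midpoints, the relation to RNAPII PET count was much weaker or not seen, while that to H3K4me3 PET count stayed. When all anchors were cut to 1000 bp around their midpoints, 2.02% of the RNAPII loops were shared at counts of 6 to 9 (95% interval 1.71 to 2.38%), 2.70% at 20 to 49 and 1 of 146 at 100 or more. When only the RNAPII anchors were cut, an alternative chosen after seeing the data, the values were 3.78%, 6.76% and 6.16% (9 of 146, 95% interval 3.28 to 11.3%). The median PET count of shared RNAPII loops was then 10 and 11, against 9 for private ones under both cuts, where it was 15 against 8 with anchors as deposited. For H3K4me3 loops with all anchors cut, 1.43% were shared at counts of 4 or 5 and 9.66% at 20 to 49 (14 of 145, 95% interval 5.84 to 15.6%). With only the RNAPII anchors cut, these were 2.85 and 22.1%. The cut does more than set a width, because it drops the outer parts of wide anchors. On RNAPII anchors of 3 kb or wider, 5.61% of the overlapping H3K4me3 anchors had their midpoint in the middle 20%. RNAPII loops with more PETs had wider anchors, with medians of 5.17 kb at counts of 6 to 9 and 8.15 kb at 100 or more. The part of this loss in the weaker relation was not tested.

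Within a matched pair, however, the PET counts of the 2 antibodies were only weakly related. Over the 1101 pairs matched 1 to 1, the median count was 14 for RNAPII and 6 for H3K4me3, and the RNAPII count was higher in 941 pairs (85.5%). The ratio of RNAPII to H3K4me3 had a median of 2.38 (quartiles 1.50 and 4.60), which also carries the depth of the libraries. Spearman's rho between the counts was 0.17 across pairs, and by chromosome it ran from -0.13 to 0.28 and was above 0 on 10 of 12, the smallest chromosome set holding 14 pairs. Pairs with RNAPII counts of 6 to 9 (345 pairs) and of 50 to 99 (93 pairs) both had a median H3K4me3 count of 6, and the 45 pairs with 100 or more had a median of 9. The lower limits of both lists truncate these counts, and pairs that share an anchor are not independent of each other. Spans agreed closely, with a median absolute difference of 1.98 kb and a rho of 0.96, as matching both anchors requires.

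**Figure D2:**
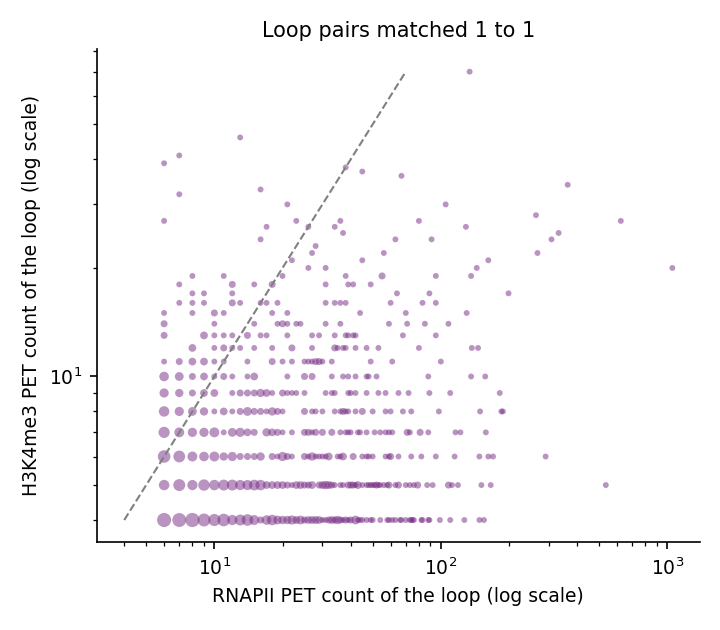
PET counts of loops matched 1 to 1, with the RNAPII count on the horizontal and the H3K4me3 count on the vertical axis, both on log scales. Each point is a combination of counts, its size grows with the number of the 1101 pairs it stands for, and the dashed line marks equal counts, above which 115 pairs lie.

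The shared loops with the most RNAPII PETs are given as examples. They were chosen for that count, so the direction of the difference within each pair is set by the choice. The RNAPII loop with the highest count, 1052, lay on chromosome 3 and joined an anchor from 9260250 to 9271676 with one from 9288726 to 9298475 over 27.6 kb, and the H3K4me3 list held the same link with a count of 20. The next, on chromosome 2, had 753 PETs between 23794432 to 23805921 and 23810749 to 23827921. It matched 3 H3K4me3 loops, the strongest with 17. The third, on chromosome 1, joined 29382369 to 29390724 with 29401615 to 29412542 by 623 RNAPII PETs and had 27 for H3K4me3. The fourth joined 27131251 to 27140151 with 27146762 to 27163649 on chromosome 4 by 535 RNAPII PETs, and its H3K4me3 loop had only 5. The fifth, on chromosome 3 from 8713156 to 8743211, had 450 and matched 3 H3K4me3 loops, the strongest with 13. All 5 spanned between 19.2 and 27.6 kb.

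The shared loops with the most H3K4me3 PETs were chosen in the same way. The H3K4me3 loop with the highest count, 70, joined 21960229 to 21963183 with 21984921 to 21987919 on chromosome 7, and its RNAPII loop had 134 PETs. The H3K4me3 loop on chromosome 9 from 5432026 to 5450652 had 63 PETs, against 13 in the stronger of its 2 RNAPII loops. On chromosome 3, from 22804775 to 22819589, the counts were 46 for H3K4me3 and 13 for RNAPII. On chromosome 12, from 11545975 to 11557970, they were 41 and 7, and on chromosome 8, from 20019347 to 20040011, they were 40 and, in the stronger of 2 RNAPII loops, 23.

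Shared loops were short for the RNAPII list but not for the H3K4me3 list, whose median span over all loops was 17.5 kb. They had a median span of 17.6 kb in the RNAPII list (quartiles 11.4 and 28.3 kb) and 17.5 kb in the H3K4me3 list (quartiles 11.8 and 28.1 kb). Private RNAPII loops were as short, with a median of 17.0 kb (quartiles 10.9 and 30.7 kb), and the median of the shared loops was the higher one on 7 of the 12 chromosomes. Part-shared RNAPII loops had a median of 60.9 kb and were longer than the shared loops on 12 of the 12. H3K4me3 loops varied less, with medians of 19.2 kb for part-shared and 15.9 kb for private loops. In this list the shared median lay above the private one on 9 of the 12 chromosomes. It lay below the part-shared one on 9 as well.

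By span, the shared portion of RNAPII loops was 24.2% at 10 to 20 kb (687 of 2841), 18.5% at 20 to 50 kb and 8.79% at 50 to 100 kb. It was 2.28% at 100 to 200 kb (18 of 788, 95% interval 1.45 to 3.58%). From 200 kb to 1 Mb 1 of 1000 RNAPII loops was shared, and of the 2401 RNAPII loops over 1 Mb only 2 were. H3K4me3 loops kept a nearly level portion up to 100 kb, between 13.4 and 15.2% in each band. Above that the list is thin, with 184 loops of 100 to 200 kb (10.3% shared), 62 of 200 kb to 1 Mb (1 shared) and 80 over 1 Mb (2 shared).

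**Figure D3:**
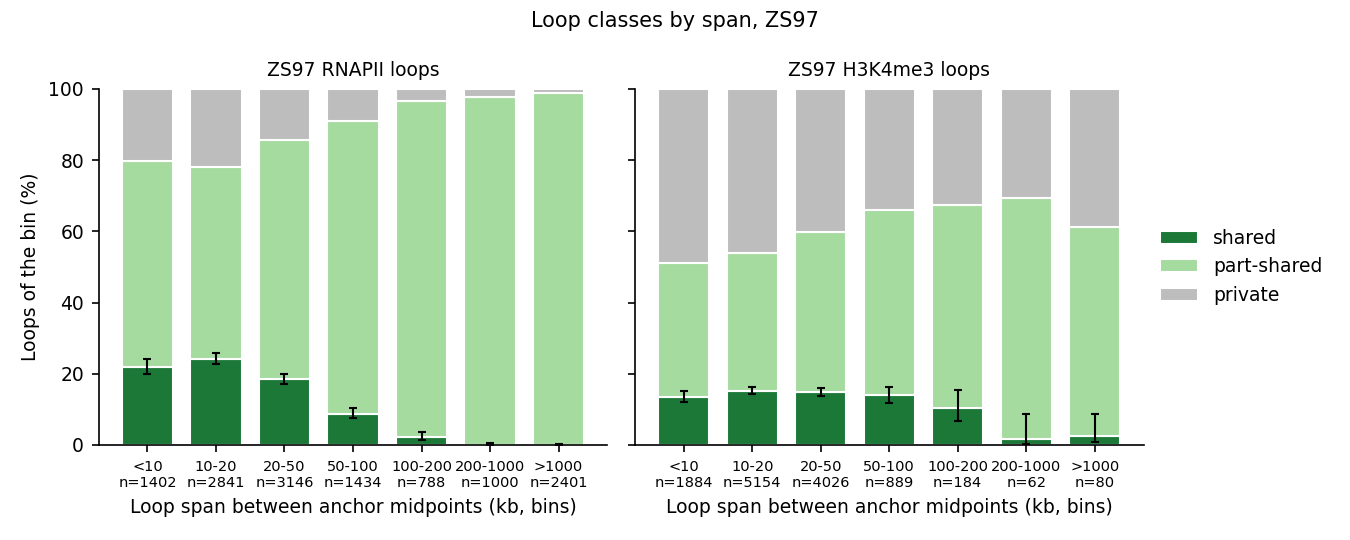
Share of loops (%, linear axis from 0) that were shared, part-shared or private in bins of span (kb), for ZS97 RNAPII loops on the left and ZS97 H3K4me3 loops on the right, with the number of loops under each bar and Wilson 95% intervals of the shared portion as error bars. In RNAPII loops the shared portion goes from 24.2% at 10 to 20 kb to 2 of 2401 loops over 1 Mb while the part-shared portion widens, and in H3K4me3 loops it stays between 13.4 and 15.2% up to 100 kb.

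Long RNAPII loops did not lack H3K4me3 at their ends. The portion with both anchors marked was 30.7% at 10 to 20 kb and 77.9% over 1 Mb, and the median anchor width went from 3.45 to 8.95 kb over the same bands. What differed was whether a H3K4me3 loop linked the marked anchors. Among RNAPII loops with both anchors marked, one did in 78.7% at 10 to 20 kb, 49.2% at 20 to 50 kb, 17.9% at 50 to 100 kb and 3.45% at 100 to 200 kb. Under 50 kb it was 1576 of 2568 (61.4%, 95% interval 59.5 to 63.2%) and at 100 kb or more 21 of 3146 (0.668%, 95% interval 0.437 to 1.02%), with the same order on 12 of the 12 chromosomes. The PET count went the other way, since 15.4% of the RNAPII loops with both anchors marked were shared at counts of 6 to 9 and 85.6% at 100 or more. A match needs a H3K4me3 loop of nearly the same span. The H3K4me3 list held 184 loops of 100 to 200 kb, 62 of 200 kb to 1 Mb and 80 over 1 Mb. The fall with span is therefore tied to the spans in the H3K4me3 list, and the part of these was not tested.

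Marked but unlinked sites could still be connected through other H3K4me3 loops. Of the 4693 RNAPII loops of this kind, 669 (14.3%, 95% interval 13.3 to 15.3%) had anchors joined by H3K4me3 loops through 1 anchor in between. A further 572 (12.2%) were joined through a longer chain, and 3343 (71.2%) had no such path. In the other 109 (2.32%) both ends met the same H3K4me3 anchor, or anchors with a direct loop once overlapping H3K4me3 anchors were merged. The route by 1 intermediate anchor was found in 50.4% of the loops of 20 to 50 kb (303 of 601), in 28.5% of those of 50 to 100 kb, in 4.22% of those of 100 kb to 1 Mb and in 0 of 1868 over 1 Mb. In the other direction, 375 of the 567 H3K4me3 loops with both anchors marked but unlinked (66.1%, 95% interval 62.1 to 69.9%) were bridged by RNAPII loops through 1 anchor in between, and 36 had no path.

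The anchors themselves differed with class. Shared RNAPII loops had a median anchor width of 4.88 kb, against 2.42 kb for private and 6.18 kb for part-shared loops, and both orders held on 12 of the 12 chromosomes. For RNAPII loops with both anchors marked but unlinked the median was 7.98 kb. In H3K4me3 loops the medians were 1.95 kb for shared, 1.83 kb for part-shared and 1.63 kb for private loops. A wide anchor meets more anchors of the other list by its width alone, so these widths are tied to the rule, and the part of width in each class was not tested. The shared portion of RNAPII loops did not simply follow width, as it was 9.66% at 1 to 2 kb, 18.9% at 3 to 5 kb and 7.43% above 8 kb.

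H3K4me3 anchors lay off the centre of the wide RNAPII anchors they marked. Of the 7599 distinct RNAPII anchor intervals, 3486 (45.9%) overlapped a H3K4me3 anchor, 3063 of them just 1. The marked intervals had a median width of 3.08 kb and the unmarked ones 1.23 kb. On RNAPII anchors of 3 kb or wider there were 2229 overlaps, and the midpoint of the H3K4me3 anchor lay in the middle 20% of the RNAPII anchor in 125 of them (5.61%). It lay 10 to 30% of the width from the nearer end in 1371 (61.5%), a zone that makes up 40% of the width, and beyond the end in 224 (10.0%). The outer 20% on each side, also 40% of the width, held 857 (38.4%). The zone of 10 to 30% holds the fullest bars of these same overlaps, so its excess over 40% is not a test. The median distance from the nearer end was 1.31 kb. When every anchor of both lists was cut to 1000 bp around its midpoint, 2.24% of the RNAPII and 2.27% of the H3K4me3 loops were shared, and when every anchor was extended by 1000 bp on each side, 24.0 and 23.0% were.

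**Figure D4:**
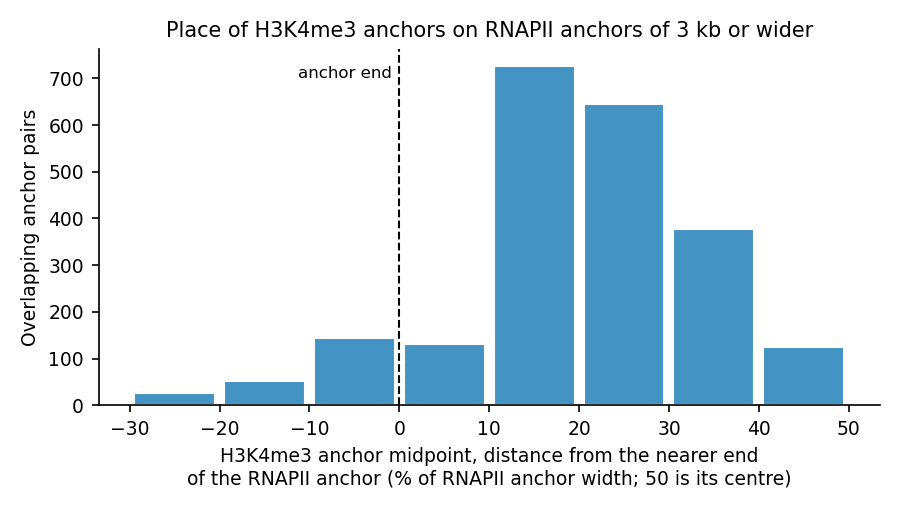
Number of overlapping anchor pairs by the place of the H3K4me3 anchor's midpoint on RNAPII anchors of 3 kb or wider (2229 pairs), as the distance from the nearer end in % of the RNAPII anchor's width. Values below 0 lie beyond the end, the first bar also holds the few below its range, and 50 is the centre, where the bar of 40 to 50 holds 125 pairs against 726 in the bar of 10 to 20.

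The RNAPII anchors with the most partners were nearly all marked. A partner is another joined anchor of the same list linked by at least 1 loop, so partners on other chromosomes are not counted. Of the 478 RNAPII anchors with 10 or more partners, 442 (92.5%) overlapped a H3K4me3 anchor and 379 (79.3%) took part in a shared loop, against 47.1 and 29.8% of all 6901. H3K4me3 anchors had fewer partners, and 15 of the 23 with 10 or more overlapped an RNAPII anchor. At loop level, the better connected anchor had a median of 9 partners in shared, 14 in part-shared and 4 in private RNAPII loops, and 4, 4 and 3 in H3K4me3 loops. By the better connected anchor, 17.4% of the RNAPII loops were shared at 5 to 9 partners and 7.71% at 20 or more. In the H3K4me3 list 5.78% were shared where neither anchor had a further partner and 21.3% at 5 to 9 partners. The part of anchor width in these shares was not tested.

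The most shared site was the same in both lists and lay on chromosome 7. The RNAPII anchor from 21289403 to 21303548, 14.1 kb wide with 25 partners, had 13 shared loops, and the H3K4me3 anchor inside it, from 21294188 to 21300575 with 20 partners, also had 13. The shared RNAPII loops of this site had PET counts from 6 to 315 with a median of 11. Their spans ran from 0 kb, with both anchors at the same midpoint, to 2315 kb, so not all were short links. The other 19 RNAPII loops of the site were part-shared with a median of 8. Next among RNAPII anchors was 26954549 to 26966398 on chromosome 3. It had 8 shared loops of 12 to 129 PETs, with spans of 0 to 40.2 kb, and 11 part-shared ones. Next among H3K4me3 anchors was 21423515 to 21425133 on chromosome 7, with 8 loops of 4 to 12 PETs, all of them shared.

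Loops with 1 marked anchor had unlike ends. In the 5033 RNAPII loops of this kind, the median width was 6.83 kb for the marked and 1.85 kb for the unmarked anchor, and the marked one was the wider in 81.9%. It had a median of 9 partners against 2. The 4605 H3K4me3 loops of this kind were more even, with 1.99 kb against 1.50 kb and 3 partners against 2. The strongest part-shared RNAPII loop was a loop of a 21.4 kb anchor on chromosome 9, from 11535609 to 11556988, with itself (315 PETs). On chromosome 6 an RNAPII loop of 281 PETs joined 19944111 to 19950301, which was marked, with the overlapping interval 19948394 to 19967436, which was not. On chromosome 7 an RNAPII loop of 233 PETs joined the marked anchor 25587664 to 25594499 with 25603330 to 25605751, which lay 7.73 kb from any H3K4me3 anchor. The strongest part-shared H3K4me3 loops had counts of 49, on chromosome 4 from 26151229 to 26162899, then 44, on chromosome 1 from 12142191 to 12155714, and 42, on chromosome 2 from 34603437 to 34615636, each with 1 marked anchor.

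Private RNAPII loops lay closer to anchors of the other list than private H3K4me3 loops did. The 2037 anchor intervals of private RNAPII loops lay a median of 3.25 kb from the nearest H3K4me3 anchor (quartiles 1.43 and 9.48 kb), and 16.3% lay more than 20 kb away. The 6905 of private H3K4me3 loops lay a median of 18.1 kb from the nearest RNAPII anchor (quartiles 4.15 and 65.5 kb), and 3312 lay more than 20 kb away. There are more H3K4me3 anchors to be near to, 11960 against 6901 merged anchors, and the part of this in the distances was not tested. Of the private RNAPII loops, 27.5% had a H3K4me3 loop within 5 kb at both anchors, and of the private H3K4me3 loops 8.37% had an RNAPII loop that near. Private H3K4me3 loops make up 43.4% of their list. Of them, 3088 had no anchor in common with a listed loop of another class. The anchors of 633 had no other partner in the list, which leaves out partners on other chromosomes. Of the 1563 private RNAPII loops, a far smaller part of their list, the numbers were 303 and 106. Private RNAPII loops had a median count of 8, and private H3K4me3 loops one of 5.

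The strongest private loops were of both kinds, near to and far from anchors of the other list. The strongest private RNAPII loops, with 261 and 214 PETs, lay at 15256355 to 15280996 on chromosome 2. They were a link of overlapping anchors and a loop of the 16.5 kb anchor with itself, and the nearest H3K4me3 anchor was 441 kb from the first and 449 kb from the second. The wide interval also overlapped a H3K9me2 anchor, a mark of silent chromatin. The next, with 132 and 100 PETs, both used the wide interval from 19948394 to 19967436 on chromosome 6, whose edge lay 0.805 kb from a H3K4me3 anchor, and the fifth, with 96, joined 21833805 to 21837120 with 21847693 to 21853421 on chromosome 2. Among H3K4me3 loops, that with 65 PETs between 23949331 to 23952024 and 23959434 to 23962388 on chromosome 7 was private and lay 102 kb from any RNAPII anchor. A private H3K4me3 loop of 36 PETs on chromosome 2, from 26745332 to 26760772, lay 55.8 kb away, and one of 28 PETs on chromosome 1, from 13305402 to 13316610, lay 129 kb away. The other named ones, with 34 PETs on chromosome 8 from 10106716 to 10141215 and 26 PETs on chromosome 1 from 6871323 to 6887883, had an RNAPII anchor within 0.118 and 0.186 kb of 1 end.

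In 301 RNAPII loops the anchors overlapped each other, as in several of those just named. Of these 301, 109 were shared, against 13.2% of all RNAPII loops. Where RNAPII anchors overlap, a short H3K4me3 loop inside them can meet the rule, so a match need not be the same link. H3K4me3 loops had no such anchors. Without these RNAPII loops 12.7% of the RNAPII and 13.7% of the H3K4me3 loops were shared.

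By chromosome, the shared portion of RNAPII loops ran from 10.3% on chromosome 5 (110 of 1073) to 18.2% on chromosome 9 (105 of 578). That of H3K4me3 loops ran from 6.25% on chromosome 12 (26 of 416) to 19.4% on chromosome 3 (391 of 2014, 95% interval 17.7 to 21.2%). Chromosome 3 held 2773 RNAPII loops and chromosome 12 only 147, against 2014 and 416 H3K4me3 loops, and the part of these numbers in the shares was not tested. The private portion of H3K4me3 loops was 32.0% on chromosome 3 and 71.4% on chromosome 12, and that of RNAPII loops was also lowest on chromosome 3 (8.40%) and highest on chromosome 12 (29.3%).

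**Figure D5:**
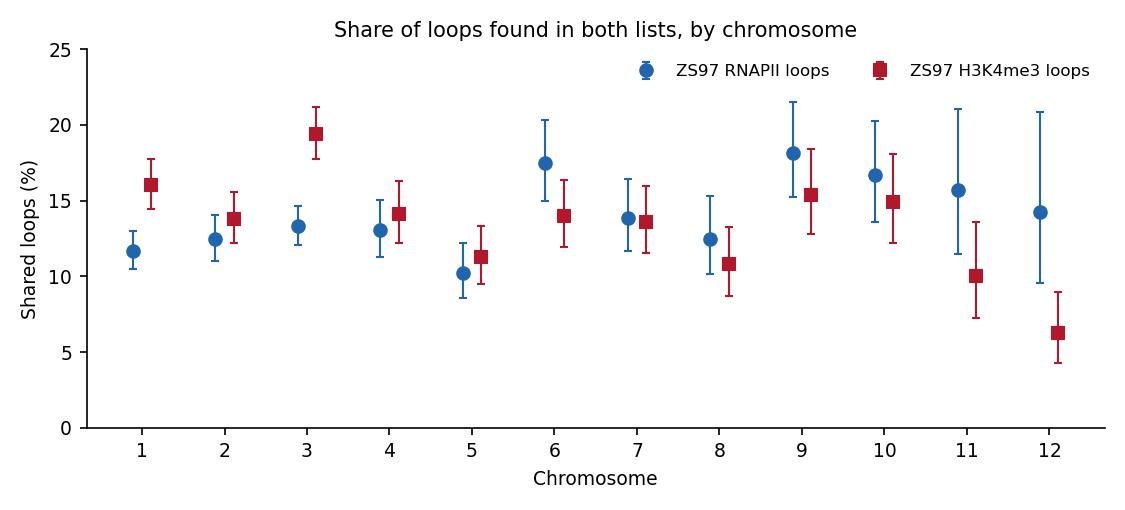
Share of loops found in both lists (%, axis from 0) on each of the 12 chromosomes, with circles for ZS97 RNAPII loops, squares for ZS97 H3K4me3 loops and Wilson 95% intervals as error bars. RNAPII values lie between 10.3 and 18.2%, H3K4me3 values between 6.25% on chromosome 12 and 19.4% on chromosome 3, and the RNAPII share is the higher one on 7 chromosomes.

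The same comparison in MH63, whose coordinates are its own, gave 1219 shared of 17160 RNAPII loops (7.10%) and 1312 of 9714 H3K4me3 loops (13.5%, 95% interval 12.8 to 14.2%). The MH63 RNAPII list reaches below 6 PETs, with 9618 loops of 6 or more, while the ZS97 RNAPII list starts at 6. Restricted to PET counts of 6 or more, 6.07% of the RNAPII and 17.3% of the H3K4me3 loops of MH63 were shared, beside 7.98 and 19.2% in ZS97. The varieties differ in their numbers of loops, and the difference in shares was not tested. Against the ZS97 H3K9me2 list, 17 of the 13012 RNAPII loops (0.131%) and 10 of the 12279 H3K4me3 loops (0.0814%) were shared.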

How the data were processed

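Each library is a ChIA-PET library of ZS97 young leaves from dual cross-linked chromatin. The authors filtered linkers, mapped tags to the ZS97 genome from RIGW, removed redundant PETs, joined the replicates, and called clusters with ChIA-PET Tool (its version is not given in the sources used here), taking extended ChIP-seq peaks as anchors. The deposited PET count is an unscaled sum over both replicates, and the lists give no library totals. Columns with the authors' p-values and FDR were not used. Positions are printed as deposited. No ZS97 annotation was used, so no gene is named.

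Loops were classed with Python 3.11.15, numpy 2.4.6, pandas 2.3.3 and scipy 1.17.1, and plotted with matplotlib 3.10.9. Anchors that only touch were not counted as overlapping. The classing was tested on 1200 simulated loops, all given their true class. The loops compared, the classes and the alternatives were chosen with earlier results of these data known. Named were the 5 strongest shared and private and the 3 strongest part-shared loops of each list by PET count, and the 2 anchors with the most shared loops. The alternatives changed the lowest PET count, the overlap, the anchor width, the longest span and the loops with overlapping anchors.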

Additional observations from a re-analysis of the deposited data

How the results depend on the processing

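The share of shared loops depended on the settings more than on counting error. For RNAPII and H3K4me3 loops in that order, it was 13.2 and 14.5% as deposited, 7.98 and 19.2% when loops under 6 PETs were left out, 5.71 and 24.7% when those under 10 were, and 10.9 and 12.5% when the overlap had to reach 50% of the smaller anchor. It was 2.24 and 2.27% with anchors cut to 1000 bp, 24.0 and 23.0% with anchors extended by 1000 bp, and 4.68 and 4.54% with only the RNAPII anchors cut, an alternative chosen after seeing the data. Loops of up to 1 Mb gave 16.2% for RNAPII, and leaving out loops with overlapping anchors gave 13.7% for H3K4me3. A higher PET limit leaves fewer loops to match, and narrower anchors overlap less. Under all 8 alternatives the median PET count was higher in shared than in private loops, and the median span lower in shared than in part-shared loops, in both lists, though by little in places. With anchors cut, or only RNAPII anchors cut, the RNAPII medians were 10 and 11 PETs against 9, and from 10 PETs on the H3K4me3 spans were both 13.6 kb. Of 128 other values (portions and medians by class), 65 left their 95% interval.

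Replicates were joined in the deposited lists, and none was left out. No paired analysis was possible because each list holds both replicates in a single PET count. The lists do not give library depth, and PET counts were not scaled to it. The paper reports more uniquely mapped PETs for ZS97 RNAPII than for ZS97 H3K4me3. Of the H3K4me3 loops, 37.2% had the lowest count listed, and a link below a list's limit counts as missing.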

Other observations

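In 1031 of the pairs matched 1 to 1 whose RNAPII anchors did not overlap each other, the side of the RNAPII anchor on which the H3K4me3 anchor lay was read at both ends. In 297 pairs (28.8%) both H3K4me3 anchors lay towards the inside of the loop, in 212 (20.6%) both towards the outside, in 280 (27.2%) both to the left and in 241 (23.4%) both to the right. All 4 arrangements were therefore common. The lists carry no gene strand, and the arrangement was not set against the direction of genes.

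Most H3K4me3 loops lay within the outer ends of an RNAPII loop of up to 1 Mb, whether or not they were shared. This held for 95.3% of the shared, 81.5% of the part-shared and 57.5% of the private H3K4me3 loops (3066 of 5328, 95% interval 56.2 to 58.9%). Over all H3K4me3 loops it was 73.1%. Shared and part-shared loops meet RNAPII anchors by the rule, so the order of these values is tied to it. An anchor of the ZS97 H3K9me2 list was met by 59 of the 1723 shared RNAPII loops (3.42%, 95% interval 2.66 to 4.39%) and by 113 of the 1563 private ones (7.23%, 95% interval 6.05 to 8.62%), against 5.77% of all RNAPII loops. Part-shared RNAPII loops with both anchors marked had 7.10% (333 of 4693), near the private ones. Their median anchor width was 7.98 kb, against 2.42 kb for private loops, and the part of width in these shares was not tested. For H3K4me3 loops the shared and private values were 29 of 1779 (1.63%) and 162 of 5328 (3.04%), against 2.43% of all. These were not tested, for want of replicates.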
